A study of Sus scrofa with 10 samples.

Results

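Deep-layer projection neurons of the cerebral cortex send their axons out of the cortex, to the brainstem, the spinal cord and the thalamus. FEZF2, a zinc finger transcription factor, specifies these neurons, and BCL11B (also called CTIP2) acts downstream of it in the outgrowth of their axons. TBR1, SOX5 and TLE4 are further regulators of deep-layer neurons, while CUX2 and POU3F2 are known from the upper layers, whose neurons project mainly within the cortex.

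The neurons described here were cells of the fetal pig medial entorhinal cortex (MEC) with at least 3 UMIs of FEZF2 and BCL11B together, and are called FEZF2/BCL11B neurons. A UMI is a molecular tag that marks 1 captured transcript. They also had at least 2 UMIs of NEUROD2, NEUROD6 and SLA together, no UMI of EOMES and at most 1 UMI of GAD1 and GAD2, which kept glutamatergic neurons and left out intermediate progenitors and interneurons. This rule found 399 cells among the 12432 cells of 5 libraries, in a series of 28229 cells from 10 libraries. The values of FEZF2 and BCL11B therefore chose the cells and are given only as a description.

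The study profiled the MEC of pig fetuses from a production farm at embryonic days 50, 60 and 70, and of adult pigs, by 10X Genomics sequencing of whole cells or nuclei. The 5 libraries used here held untreated whole cells that were dissociated with papain, and are named by embryonic day and library number. Per the sample labels, E50_1 pooled 3 brains, E60_3 2 brains, E70_1 2 brains, and E70_2 and E70_3 1 brain each. The study's supplement gives other numbers of brains for E70_1 and E70_3. Each library was 1 sample, and only E70 had more than 1 library here. The libraries had 493 to 5506 cells, with median UMIs per cell from 6828 to 9403. Between any 2 of the 10 libraries, at most 1.83% of the barcodes of the smaller library were shared.

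For comparison, cells that passed the same neuronal gate with no UMI of FEZF2 or BCL11B were taken, and are called comparison neurons (2349 cells). A further 775 gated cells had 1 or 2 UMIs and belonged to neither group. SLA is also transcribed in microglia, so the gate let some of them in. Of the comparison neurons, 225 (9.58%) had at least 3 UMIs of the microglial genes CSF1R, AIF1 and PTPRC together, against 1 of the 399 FEZF2/BCL11B neurons. All cells of a library that met this microglial gate, neuronal or not, served as a background and are called microglial cells. A stricter comparison, chosen after the data were seen, used cells with at least 2 UMIs of NEUROD2 and NEUROD6 and left these microglial cells out of both groups.

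FEZF2 lies on chromosome 13 of Sscrofa11.1 from 43953914 to 43958419, and BCL11B on chromosome 7 from 120205008 to 120295737. The 250 bases upstream of the RefSeq gene start are shown for FEZF2, which defines the cells, and for CRYM, PDE1A and LMO3, which were among the genes with the largest excess in them, to give the local sequence of genes that were high together. The windows lie at chr13:43958420-43958669 (minus strand), chr3:24814760-24815009 (plus), chr15:87965069-87965318 (minus) and chr5:56056635-56056884 (plus). Capitals mark CAGATG on either strand, an E-box of the kind bound by NEUROD factors, read from the RefSeq genome 5′ to 3′ along the gene.
FEZF2: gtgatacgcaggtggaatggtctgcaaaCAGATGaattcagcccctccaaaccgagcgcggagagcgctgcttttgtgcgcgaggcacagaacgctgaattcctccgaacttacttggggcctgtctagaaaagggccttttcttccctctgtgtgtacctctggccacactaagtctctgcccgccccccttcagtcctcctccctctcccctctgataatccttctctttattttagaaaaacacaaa
CRYM: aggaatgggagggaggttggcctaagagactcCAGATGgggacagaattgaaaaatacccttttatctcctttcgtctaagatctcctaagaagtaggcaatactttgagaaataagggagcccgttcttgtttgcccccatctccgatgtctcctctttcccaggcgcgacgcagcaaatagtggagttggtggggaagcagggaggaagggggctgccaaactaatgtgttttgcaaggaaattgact
PDE1A: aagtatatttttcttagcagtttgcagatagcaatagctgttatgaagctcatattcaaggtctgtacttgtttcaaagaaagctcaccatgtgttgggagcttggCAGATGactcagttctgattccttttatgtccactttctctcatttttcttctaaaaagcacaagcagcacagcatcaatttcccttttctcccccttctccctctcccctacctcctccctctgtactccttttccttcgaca
LMO3: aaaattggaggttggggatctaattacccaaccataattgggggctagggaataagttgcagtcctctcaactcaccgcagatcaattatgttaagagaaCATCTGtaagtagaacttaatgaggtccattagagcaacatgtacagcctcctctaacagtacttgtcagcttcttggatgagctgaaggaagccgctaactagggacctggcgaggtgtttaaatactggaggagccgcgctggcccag

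These letters were found in the windows of 12.5% of 19531 protein-coding genes, in 10.6% of the genes tested below and in 13.8% of those that were higher in FEZF2/BCL11B neurons. The 4 windows were chosen after they had been searched. The letters were in 5 of the windows of the 10 genes with the largest excess described below, and not in those of BCL11B, GRIK3, NTS, BRINP3, RSPO3 or PRKD1. A match of letters is a description of the sequence.

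One library stood apart from the others, in neurons and in microglial cells. TUBB3, a neuronal tubulin, stood at 5187 CPM (UMIs of a gene per 1000000 UMIs of the summed cells) in the non-microglial comparison neurons of E50_1 but at 57.7 to 257 CPM in those of the other 4 libraries, and at 549 CPM in the microglial cells of E50_1 against 3.78 to 71.5 CPM. PGLS, an enzyme of the pentose phosphate pathway, was at 164 CPM in the microglial cells of E50_1 and at 13.4 to 31.7 CPM in those of the others. The difference leaned toward GC-rich transcripts. In microglial cells the median log2 ratio of E50_1 over E70_3 was -0.31 in the tenth of genes with the lowest GC content and 0.42 in the tenth with the highest, and in comparison neurons it was -0.26 and 0.57. FEZF2 (60.3% GC) and BCL11B (69.4% GC) lie above 82.1% and 99.5% of the tested genes that had a RefSeq transcript. The part of this library difference in the results was not tested.

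The data went against the label in part of the E60 and E70 cells. The 3 cells of E70_2 had 3 to 5 UMIs of BCL11B, at most 1 of FEZF2, none of CRYM, and 2 to 7 of CUX2. In E60_3, 2 of the 17 cells had 174 and 92 UMIs of RELN, with 122 and 26 of CALB2, 27 and 19 of LHX1 and 26 and 22 of NDNF, genes known from Cajal-Retzius cells, at 52739 and 36048 UMIs in all. One of them had no UMI of FEZF2 and 4 of BCL11B. RELN was thereby at 919 CPM in E60_3 against 94.2 CPM in the comparison neurons, while it was at 33.2 and 28.4 CPM against 149 and 54.3 CPM in E50_1 and E70_3. A UMI of BCL11B was also found in 15.1% of the 166 microglial cells of E60_3 and 37.5% of the 32 of E70_1, against 3.33% in E50_1, at median depths of 13186, 20949 and 12024 UMIs, and the part of free RNA in these shares was not tested. The few cells of E60_3 and E70_2 are therefore called by the rule alone. The results below include E60_3, and only some of them are also given without it. Of 66 named genes tested again without E60_3, 58 kept their direction and call. A further 6 no longer passed, 1 newly passed and RELN reversed. The ranked ones among the named genes were picked for the same direction in all 3 libraries, E60_3 included. Over all genes, 519 of the 783 called in the main comparison below were also called without E60_3.

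FEZF2/BCL11B neurons made up 18.5% of the glutamatergic-gated cells of E50_1 (350 of 1893, exact Clopper-Pearson 95% CI 16.8 to 20.3). The share was 2.51% in E60_3 (17 of 676, CI 1.47 to 4.0). In the 3 libraries of E70 it was 0 of 46 cells in E70_1 (which allows a share of up to 6.52% by the limit of 3 counts, and 7.71% by the exact interval), 3.45% in E70_2 (3 of 87) and 3.53% in E70_3 (29 of 821, CI 2.38 to 5.03), with a mean of 2.33% ± 2.02 (SD, n = 3). Thus most of the cells came from the single E50 library, and the intervals, which cover counting error only, of E50_1 and the other libraries did not overlap. With 1 library each at E50 and E60, the stages could not be tested, and stage cannot be told apart from library.

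A threshold in UMIs depends on depth. When each cell was thinned at random to 3000 UMIs, the rule found 85 of 1377 gated cells in E50_1 (6.17%), 0 of 282 in E60_3, which allows up to 1.06%, 0 of 15 in E70_1, 0 of 33 in E70_2 and 1 of 414 in E70_3 (0.242%). Only 11 cells of E70_1 and 8 cells of E70_2 were too shallow to be thinned. The share of gated cells with any UMI of the 2 genes at this depth was 26.4% in E50_1, 8.51% in E60_3 and 7.49% in E70_3. Cells of the microglial gate, which should lack FEZF2, gave 0 of 150 (which allows up to 2.0%, with 1 of 150 for BCL11B in the separate draw used for single genes), 4.82% and 0.877% in the same libraries, and 5.33%, 18.7% and 6.14% without thinning. Before thinning, the median UMIs of these microglial cells were 12024, 13186 and 10186.5. E50_1 was thus the highest at equal depth too.

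**Figure D1:**
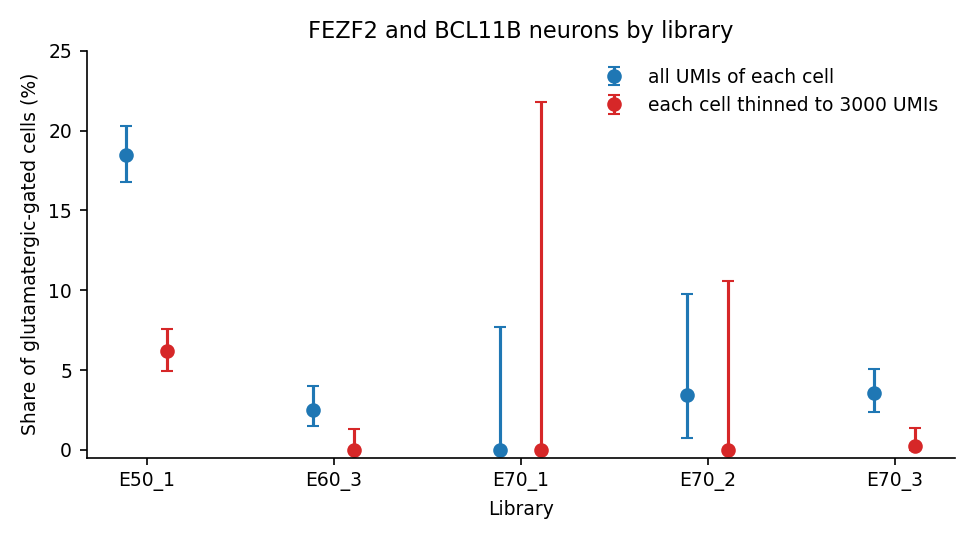
FEZF2/BCL11B neurons as a share of glutamatergic-gated cells (y axis, percent) in 5 libraries (x axis), with all UMIs (blue) and with each cell thinned to 3000 UMIs (red). Bars are exact 95% confidence intervals for counting error. The point of E50_1 stands highest in both, at 18.5% and 6.17%, though the thinned intervals of E70_1 and E70_2 reach above its thinned point.

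Among the FEZF2/BCL11B neurons themselves, FEZF2 reached 487 CPM in E50_1, 127 CPM in E60_3 and 103 CPM in E70_3. BCL11B reached 169, 91.2 and 60.3 CPM in the same order. Both genes were seen in 237 of 350 cells of E50_1, FEZF2 alone in 92 and BCL11B alone in 21. In E70_3 the numbers were 21, 6 and 2, and in E60_3 9, 5 and 3. The cells of E50_1 had a median of 9015 UMIs, close to the 8957.5 of the comparison neurons. In E70_3 the medians were 24717 and 8467, and 17 of the 29 cells but 71 of 686 comparison neurons had over 20000 UMIs. In E60_3 the medians were 13593 and 9003. Scrublet called 20 of the 350 cells of E50_1, none of the 17 of E60_3 and 1 of the 29 of E70_3 doublets. These cells were kept.

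The cells just inside the threshold resembled those just outside it in part. In E50_1, 84 cells had exactly 3 UMIs and 139 had exactly 2. CRYM was at 811 CPM in the first and 365 CPM in the second, SOX5 at 1158 and 921 CPM, and POU3F2 at 63.7 and 85.7 CPM.

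To find what else set these neurons apart, UMIs were summed over the cells of each group in each library with at least 10 such cells, which left E50_1, E60_3 and E70_3. The sums were compared in pairs within the libraries with edgeR's quasi-likelihood test, without the 8 genes of the rule. Of 14725 genes, 783 (5.32%) passed an adjusted p of 0.05, of which 281 (1.91%) were higher in FEZF2/BCL11B neurons and 502 (3.41%) were lower. Against the stricter comparison neurons 247 of 14015 genes (1.76%) passed, with 159 (1.13%) higher and 88 (0.628%) lower. Against comparison neurons matched cell by cell on total UMIs 169 of 10569 genes (1.6%) passed, with 55 (0.52%) higher and 114 (1.08%) lower. Without E60_3 the test called 584 genes, 194 higher and 390 lower, and without E50_1 it called 974, with 529 higher and 445 lower, so that the larger direction turned. The median log2 fold change of all genes was -0.03. The 3 libraries came from separate brains but from different days, so the p-values cover the spread between these libraries.

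Genes of the deep layers were higher together. Of 20 tested genes of this list 10 were higher and none was lower, with a median log2 fold change of 1.10. Of all tested genes 1.91% were higher and 3.41% lower. This list and the lists below were chosen with earlier results of these data known, so their counts are no independent evidence. SOX5 of this list was also among the factors that the study chose on these samples. The same 10 passed against the stricter comparison neurons, and 8 of 16 tested passed when UMIs were matched. CRYM, a thyroid hormone binding protein, stood at 1083 CPM in E50_1, 264 CPM in E60_3 and 730 CPM in E70_3, against 95.9, 50.5 and 95.3 CPM in the comparison neurons. The groups did not overlap, and the log2 fold change was 3.00 ± 0.23 (SE, edgeR adjusted p = 4.96e-06). In cells of the microglial gate, as background, CRYM was at 40.2, 16.5 and 40.4 CPM. Of the 81 CRYM UMIs of E60_3, 37 came from 1 cell, one of those with RELN.

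SOX5, a transcription factor that controls the timing of corticofugal neuron generation, was at 1506 CPM in E50_1, 463 CPM in E60_3 and 569 CPM in E70_3, against 426, 168 and 133 CPM. Every library was higher than its own comparison neurons, and the groups did not overlap (log2 fold change 1.83 ± 0.19, edgeR adjusted p = 5.62e-05). LDB2, a LIM domain binding cofactor, was at 710, 450 and 870 CPM against 170, 134 and 322 CPM, again without overlap (1.78 ± 0.18, edgeR adjusted p = 6.03e-05). ZFPM2 (FOG2), a transcription cofactor of corticothalamic neurons, was at 125, 150 and 276 CPM against 32.2, 40.1 and 40.6 CPM (2.25 ± 0.22, edgeR adjusted p = 5.05e-05). It was also at 90.6 to 105 CPM in cells of the microglial gate.

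TLE4, a corepressor of layer VI neurons, was at 213 CPM in E50_1, 182 CPM in E60_3 and 370 CPM in E70_3, against 55.2, 93.6 and 58.2 CPM (1.94 ± 0.27, edgeR adjusted p = 0.000724). TBR1, the T-box factor of layer VI, reached 51.6, 55.4 and 35.5 CPM against 18.1, 15.7 and 16.6 CPM (1.49 ± 0.26, edgeR adjusted p = 0.0036). Both genes were higher in all 3 libraries without overlap. Microglial cells held TLE4 at 101 to 114 CPM. LMO3, a LIM-only cofactor, PCP4, a calmodulin regulator, NFIA, a nuclear factor of the I family, and CRIM1, a transmembrane protein of corticospinal neurons, were the other members that rose, by log2 fold changes of 2.56, 2.06, 1.28 and 1.04. CRIM1 did not pass with matched UMIs, with DESeq2, without E50_1 (0.94) or without E70_3 (0.78), and PCP4 did not pass with matched UMIs.

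Not every deep-layer gene moved. FOXP2, a forkhead factor of layer VI, was at 22.8, 9.78 and 9.47 CPM against 17.4, 12.1 and 5.05 CPM, which overlapped (log2 fold change 0.43 ± 0.36, edgeR adjusted p = 0.619). NTSR1, the neurotensin receptor used as a layer VI marker in mice, was at 1.18 to 3.26 CPM against 6.81 to 9.82 CPM, without overlap but at low counts (-1.82 ± 0.52, edgeR adjusted p = 0.0654). ETV1, a layer V factor, was at 15.3, 39.1 and 81.6 CPM against 10.8, 57.7 and 54.4 CPM (0.31 ± 0.26, edgeR adjusted p = 0.614).

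**Figure D2:**
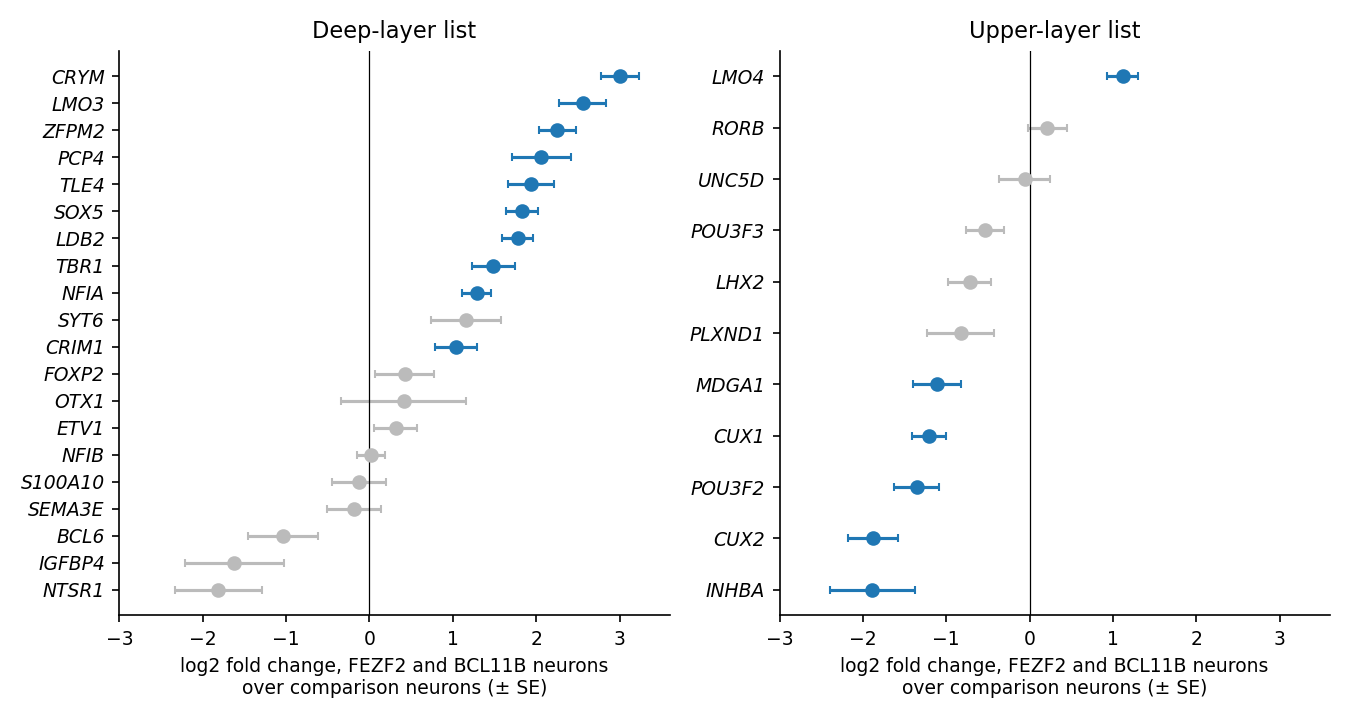
Log2 fold change of FEZF2/BCL11B neurons over comparison neurons (x axis, ± SE over 3 library pairs) for the tested genes of the deep-layer and upper-layer lists. Blue points passed an edgeR adjusted p of 0.05 and grey ones did not. In the deep-layer list 10 of 20 were higher, and in the upper-layer list 5 of 11 were lower and LMO4 was higher.

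Genes of the upper layers went the other way, with 5 of 11 reported genes lower, 1 higher and a median log2 fold change of -0.83. Of all tested genes 3.41% were lower and 1.91% higher. CUX2, a homeobox factor of the upper layers, was at 18.5 CPM in E50_1, 58.7 CPM in E60_3 and 16.6 CPM in E70_3, against 67.2, 103 and 132 CPM, without overlap (-1.88 ± 0.30, edgeR adjusted p = 0.00212). In E70_3 cells of the microglial gate also held CUX2 at 110 CPM. POU3F2 (BRN2), a POU factor of upper-layer neurons, was at 34.0, 332 and 91.1 CPM against 92.3, 450 and 449 CPM, with overlap (-1.36 ± 0.28, edgeR adjusted p = 0.00938). CUX1, a paralog of CUX2, MDGA1, an adhesion protein, and INHBA, an inhibin subunit, fell by 1.21, 1.11 and 1.89 on the log2 scale. MDGA1 did not pass without E60_3 or without E70_3 (-0.87), nor INHBA without E70_3 (-1.17).

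LMO4, a LIM-only factor that is not limited to the upper layers, was the only gene of the list that rose, at 247, 424 and 682 CPM against 139, 161 and 327 CPM (1.12 ± 0.18, edgeR adjusted p = 0.00252). Against the stricter comparison neurons 4 of the 5 genes passed, and INHBA did not (edgeR adjusted p = 0.062). With comparison neurons matched on UMIs the median of the list was -0.79, and none of the 11 genes passed. CUX2 then had a log2 fold change of -1.69 (edgeR adjusted p = 0.0815). This fit held 350, 17 and 29 comparison neurons in place of 1060, 516 and 686, and whether depth or number changed the calls was not tested.

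**Figure D3:**
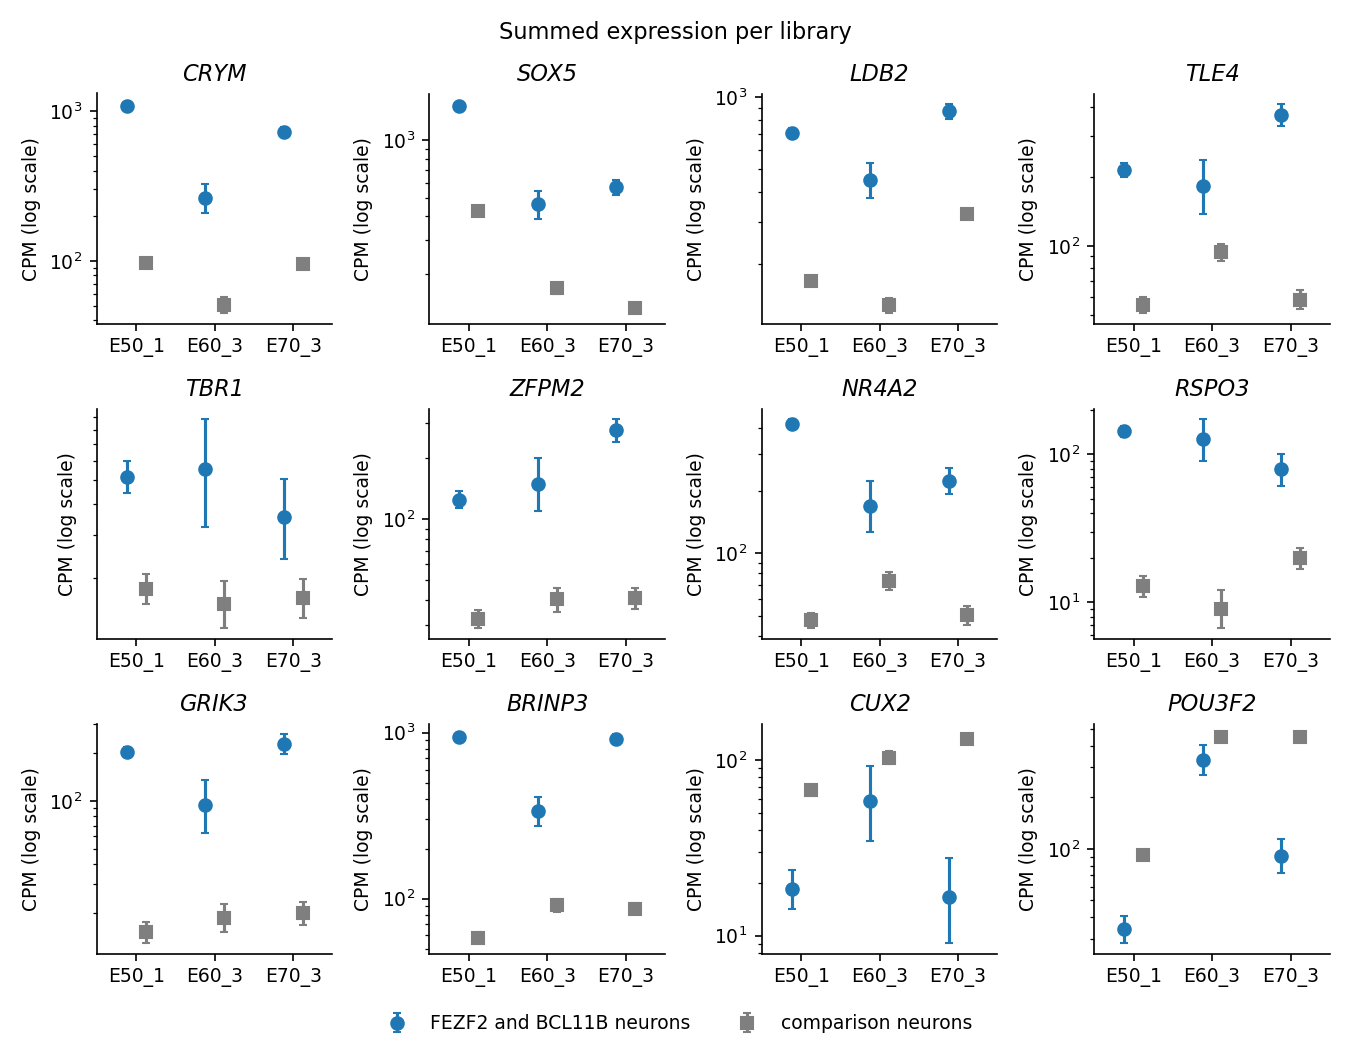
Summed expression (y axis, CPM, log scale, with its own range in each panel) of 12 genes in FEZF2/BCL11B neurons (blue circles) and comparison neurons (grey squares) of 3 libraries. Bars are Poisson 95% intervals for counting error. For 10 of these picked genes every blue point lies above every grey point, and CUX2 and POU3F2 are lower in each library. The share of all tested genes without overlap was not counted.

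The 10 genes with the largest excess among those at 20 CPM or more were GRIK3, NTS, BRINP3, RSPO3, CRYM, SERTM1, PDE1A, GPR22, LMO3 and PRKD1, with log2 fold changes from 2.54 to 3.33. RSPO3 had been named as a marker with results of these data known, so its place here is no independent evidence. In 9 of the 10 genes, RSPO3 included, the 2 groups did not overlap. The genes were picked, though, for a large change in the same direction in each library. The share of all tested genes without overlap was not counted. GRIK3, a kainate receptor subunit, was at 201 CPM in E50_1, 94.5 CPM in E60_3 and 227 CPM in E70_3, against 15.1, 18.5 and 19.9 CPM in the comparison neurons (3.33 ± 0.27, edgeR adjusted p = 6.96e-06). The level in the comparison neurons was near that of microglial cells, at 7.96 to 20.5 CPM. BRINP3, a neural protein that is induced by BMP and retinoic acid, was at 946, 336 and 916 CPM against 58.3, 91.2 and 87.0 CPM (3.18 ± 0.33, edgeR adjusted p = 5.62e-05).

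PDE1A, a calmodulin-dependent phosphodiesterase that is also in the subplate list, was at 154, 108 and 150 CPM against 19.0, 24.2 and 23.9 CPM (2.69 ± 0.22, edgeR adjusted p = 9.53e-06). In E60_3, 19 of its 33 UMIs came from 1 cell. PRKD1, the protein kinase D1, was at 315, 124 and 172 CPM against 35.3, 34.6 and 33.7 CPM (2.54 ± 0.25, edgeR adjusted p = 4.82e-05). GPR22, an orphan receptor, was at 98.6, 26.1 and 78.1 CPM against 9.67, 4.92 and 21.4 CPM (2.64 ± 0.31, edgeR adjusted p = 0.000167). In E60_3 GPR22 rested on 8 UMIs in 4 cells. Without the top cell it stood at 13.0 CPM there, below the 21.4 CPM of the comparison neurons of E70_3. SERTM1 was lowest in E50_1 and highest in E70_3, at 75.8, 114 and 279 CPM, and stayed at 16.7, 18.3 and 19.4 CPM in the comparison neurons (2.93 ± 0.30, edgeR adjusted p = 5.27e-05).

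NTS, the neuropeptide neurotensin, overlapped between the groups, with 221, 1105 and 1407 CPM against 16.1, 45.0 and 520 CPM (3.30 ± 0.45, edgeR adjusted p = 0.000532). In E60_3 1 cell, the one with 174 UMIs of RELN, held 313 of the 339 NTS UMIs. With matched UMIs NTS did not pass (2.89, edgeR adjusted p = 0.191). Without E60_3 the log2 fold change of NTS was 2.61 (edgeR adjusted p = 0.00118). RSPO3, an R-spondin that strengthens Wnt signaling, and ARPP21, a cAMP-regulated phosphoprotein, were named as markers of these neurons with results of these data known, so no test is given for them. RSPO3 was at 143, 127 and 79.3 CPM against 12.8, 9.08 and 19.9 CPM, without overlap. ARPP21 was at 554, 300 and 779 CPM against 219, 57.5 and 431 CPM, higher in each library but with overlap.

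The genes that were lowest in FEZF2/BCL11B neurons were GMFG, SPP1, C1QA, C1QB, CCL3L1, CTSZ, C1QC, AIF1, LAPTM5 and FCER1G, most of them known from microglia. C1QA, a complement subunit of microglia, was at 4.90, 0 and 3.55 CPM against 181, 167 and 115 CPM in the comparison neurons, and at 1830, 462 and 756 CPM in the microglial cells. All 5 genes of the microglial list were lower, against 3.41% of all tested genes. Together the 5 summed to 19.6 to 29.6 CPM in FEZF2/BCL11B neurons and to 488 to 718 CPM in the comparison neurons. Against the stricter comparison neurons none of the 5 passed, with a median log2 fold change of -0.33, and C1QA had a log2 fold change of -0.36 (edgeR adjusted p = 0.912). AIF1, CSF1R and PTPRC of this list are also the genes of the gate that left the microglial cells out. The loss of the difference there followed in part from that choice of cells.

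Against these stricter comparison neurons the lowest genes were APOA1, ADCYAP1, CUX2, EBF1, KCNC2, KCNK2, EPHA4, NKAIN3, DPF3 and POU3F2. EPHA4, an ephrin receptor of axon guidance, had a log2 fold change of -1.65 (edgeR adjusted p = 0.00859) and ADCYAP1, the neuropeptide PACAP, one of -2.02 (edgeR adjusted p = 0.00409). The potassium channel genes KCNC2 and KCNK2 fell by 1.68 and 1.66 on the log2 scale, and EBF1, a transcription factor, by 1.72. APOA1, an apolipoprotein, was at 36.6 CPM in the FEZF2/BCL11B neurons and 277 CPM in the stricter comparison neurons of E50_1, at 691 CPM in microglial cells there, and at 0 to 0.970 CPM in neurons of both kinds in the other 2 libraries, so its difference rested on E50_1. In the comparison with all comparison neurons, ADCYAP1 (-1.63), EBF1 (-0.77), EPHA4 (-1.21) and DPF3 (-0.74) did not pass without E50_1.

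Among other groups of genes, 2 of 7 tested subplate genes rose, PDE1A and NR4A2, against 1.91% of all tested genes. NR4A2 (NURR1), a nuclear receptor of deep-layer, subplate and claustral neurons, was at 419, 169 and 222 CPM against 47.6, 73.8 and 50.3 CPM without overlap (2.26 ± 0.30, edgeR adjusted p = 0.000418). In E60_3, 6 of the 17 cells had a UMI of NR4A2, and 2 cells held 21 each of the 52 UMIs, one of them a cell with RELN. The share with a UMI there was 35.3% against 39.3% of the comparison neurons, or 11.8% against 17.6% at 3000 UMIs. Without E60_3 the log2 fold change was 2.69 (edgeR adjusted p = 3.39e-05). The background in microglial cells was 57.9, 86.6 and 117 CPM. CDH18 of the same list was at 123, 124 and 134 CPM against 116, 64.5 and 72.8 CPM and did not pass (edgeR adjusted p = 0.136).

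Of 16 tested genes of synapses and excitability 4 rose and none fell, with a median of 0.43. They were SYT1 and SNAP25 of vesicle fusion, the NMDA receptor subunit GRIN2B and the sodium channel SCN2A. Over all tested genes, 1.91% rose and 3.41% fell. SNAP25 was at 427, 857 and 1023 CPM against 271, 219 and 336 CPM (1.43 ± 0.23, edgeR adjusted p = 0.00212). Against the stricter comparison neurons SNAP25 and GRIN2B passed, and with matched UMIs none of 14 did, while the median was 0.45 and SNAP25, GRIN2B and SYT1 had log2 fold changes of 1.16, 0.96 and 0.83. SYT1 missed the threshold without E60_3 (0.71) or without E70_3 (0.68), as did SCN2A (0.76 and 0.77). In the axon guidance list NRP1, a semaphorin receptor, and EPHA4 fell and none rose among 14 tested genes. NRP1 was at 77.9, 127 and 31.9 CPM against 200, 301 and 128 CPM (-1.48 ± 0.21, edgeR adjusted p = 0.000701).

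Without ARPP21, and against 1.91% of all tested genes, 2 of 8 tested genes of the glutamatergic list were higher, with a median of -0.29. They were SLC17A7 (VGLUT1), with a log2 fold change of 1.90 (1.08 and not past the threshold without E70_3), and CAMKV, with 1.09 (not past it without E60_3, at 0.87, or without E70_3, at 1.14). Neither passed against the stricter comparison neurons, where SLC17A6 (VGLUT2) was lower (-1.10, edgeR adjusted p = 0.0236). In the list of the medial pallium and hippocampus without RSPO3, 1 of 7 tested genes passed, against 5.32% of all tested genes. LEF1, a Wnt effector, was lower, at 6.34, 6.52 and 3.55 CPM against 56.8, 24.0 and 16.4 CPM (-2.78 ± 0.39, edgeR adjusted p = 0.000624). Microglial cells held LEF1 at 124 to 248 CPM. In a list of 10 genes tied to stellate cells, FOXP1 and SOX5 were higher and 8 did not pass. Both are among the factors that the study chose on these samples, which makes them no independent evidence. CALB1 (calbindin) of the list of noncortical neurons was higher, at 59.1, 29.3 and 22.5 CPM against 14.5, 3.22 and 3.41 CPM (2.48 ± 0.32, edgeR adjusted p = 0.000416). The study names CALB1 as a pyramidal marker of the entorhinal cortex in other mammals, and saw no population expressing it among its excitatory clusters.

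None of the tested genes of newborn neurons and progenitors (7), astroglia (6), oligodendroglia (4), Cajal-Retzius cells (5) or immediate early genes (4) passed in either direction. The Cajal-Retzius list still had a median log2 fold change of 1.69, while the medians of the others lay from -0.47 to 0.02. It summed to 61.4, 1740 and 137 CPM in E50_1, E60_3 and E70_3, against 208, 146 and 82.5 CPM in the comparison neurons. Of the 8 cytoskeletal genes of immature neurons STMN1, which destabilizes microtubules, rose by 0.58, but not past the threshold without E60_3 (0.45) or without E70_3 (0.57). In the lists of other cell types, SST of interneurons, PECAM1 and FLT1 of vessels and HBB of red cells were lower, though SST (-1.15) and FLT1 (-1.40) did not pass without E50_1, nor HBB without E60_3 (-0.62) or without E70_3 (-0.91). Against the stricter comparison neurons PECAM1 (-1.52), FLT1 (-1.68) and HBB (-0.30) did not pass. The vascular list summed to 28.4 to 61.1 CPM in FEZF2/BCL11B neurons and 65.5 to 170 CPM in comparison neurons, and the erythroid list to 127 to 3314 CPM and 215 to 4830 CPM, both highest in E50_1. The interneuron list without the genes of the rule summed to 7.10 to 21.6 CPM, with DLX2 at 0. The part of these in the results was not tested.

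Within E50_1, where cells were numerous enough, they were also split by the UMIs of FEZF2 and BCL11B that the rule used, as a description. CRYM was at 95.9 CPM in 1060 cells with no UMI, 233 CPM in 483 cells with 1 to 2, 887 CPM in 138 cells with 3 to 4, 1210 CPM in 145 cells with 5 to 9, and 1162 CPM in 67 cells with 10 or more. POU3F2 was at 92.3, 103, 56.2, 28.3 and 9.02 CPM in the same order. SOX5 went from 426 to 1656 CPM at 5 to 9 UMIs and was at 1522 CPM in the top group. The cells with 1 or 2 UMIs thus lay between the 2 groups in CRYM, but not in POU3F2. TBR1, in contrast, was at 55.4, 48.4 and 51.5 CPM in the 3 upper groups, whose Poisson intervals overlapped. The median UMIs per cell in these groups were 8957.5, 8085, 7772.5, 9363 and 11311. These are values of 1 library, without a test.

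**Figure D4:**
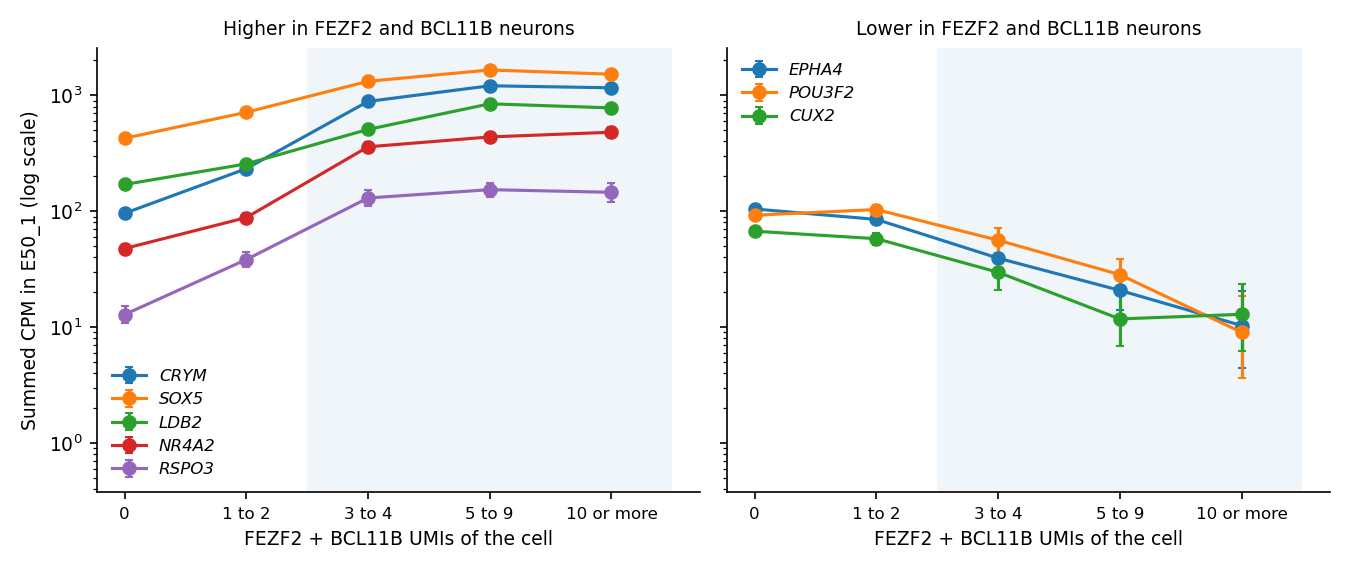
Summed expression in E50_1 (y axis, CPM, log scale) in glutamatergic-gated cells grouped by their UMIs of FEZF2 and BCL11B together (x axis), with Poisson 95% intervals. The shaded groups are the FEZF2/BCL11B neurons. CRYM goes from 95.9 to 1162 CPM and POU3F2 from 92.3 to 9.02 CPM between the first and the last group.

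In E50_1 the summed values of the cells with BCL11B alone lay apart from those of the other members, as a description. The split uses genes of the rule, and the Poisson intervals cover counting error only, not the spread between cells or libraries. In the 237 cells with both, POU3F2 was at 31.8 CPM (Poisson 95% CI 25.1 to 39.7), in the 92 cells with FEZF2 alone at 26.2 CPM (CI 16.6 to 39.3), and in the 21 cells with BCL11B alone at 109 CPM (CI 64.8 to 173). LDB2 was at 743 and 707 CPM in the first groups but at 231 CPM in the cells with BCL11B alone. CRYM was at 1195, 890 and 474 CPM, and CUX2 at 15.3, 14.8 and 85.0 CPM. The cells with BCL11B alone were thus lower in CRYM and LDB2 and higher in CUX2 and POU3F2. They had a median of 6665 UMIs against 9183 and 9222. Only E50_1 had at least 10 cells with and without FEZF2, so that no test was possible.

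At 3000 UMIs per cell, CRYM was found in 76.6% of the FEZF2/BCL11B neurons of E50_1 (CI 71.8 to 80.9), 20.6% of its comparison neurons and 6.67% of its microglial cells. Without thinning the shares were 86.9%, 40.6% and 25.3%. In E70_3 CRYM was found in 69.0% (CI 49.2 to 84.7) of the FEZF2/BCL11B neurons, 14.0% of the comparison neurons and 1.75% of the microglial cells, or 89.7%, 23.6% and 6.14% without thinning. In E60_3 the share was 23.5% (CI 6.81 to 49.9) against 11.6% and 1.20%, or 58.8%, 23.8% and 14.5% without thinning. POU3F2 at this depth was found in 8.57% of FEZF2/BCL11B neurons and 24.5% of comparison neurons in E50_1, in 47.1% and 64.1% in E60_3, and in 20.7% and 67.3% in E70_3. The microglial cells gave 3.33%, 15.1% and 2.63%. Without thinning the POU3F2 shares were 20.3% and 50.4%, 88.2% and 81.8%, and 51.7% and 85.6%.

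**Figure D5:**
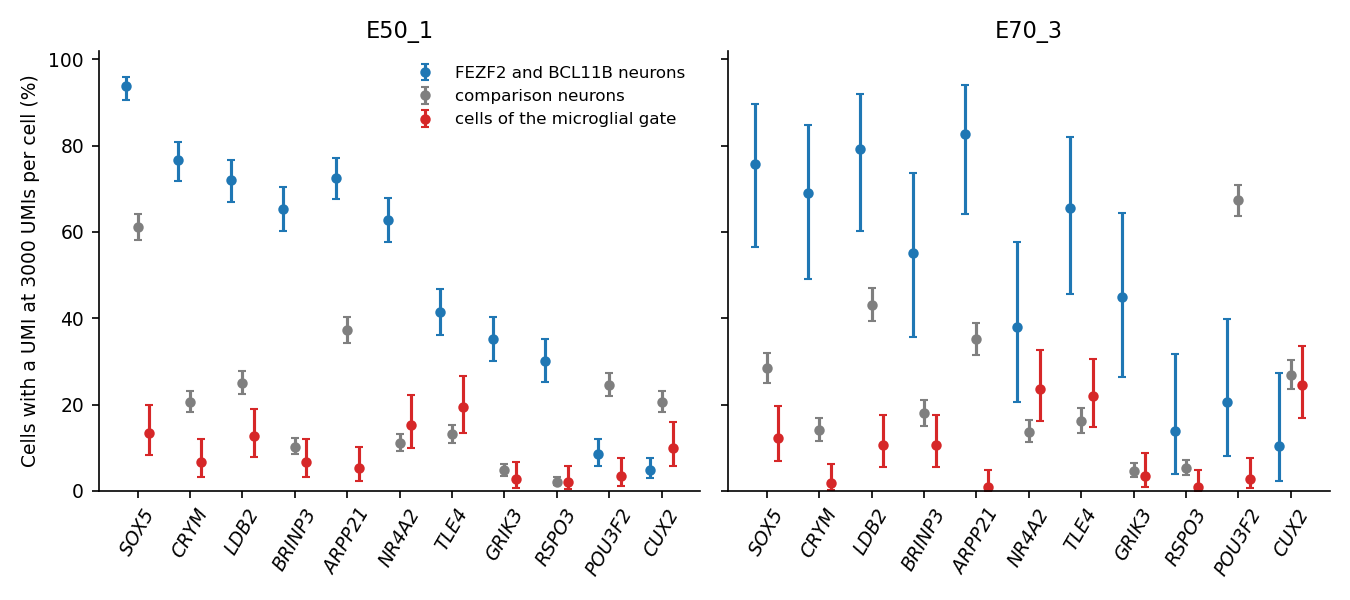
Share of cells with at least 1 UMI of each gene (y axis, percent) after thinning to 3000 UMIs in E50_1 and E70_3, for FEZF2/BCL11B neurons (blue), comparison neurons (grey) and cells of the microglial gate (red). Bars are exact 95% intervals for counting error. CRYM is seen in 76.6% and 69.0% of the FEZF2/BCL11B neurons, and in 20.6% and 14.0% of the comparison neurons.

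How often genes were found in the same cell was counted without a test, and SOX5, with a UMI in 344 of the 350 cells of E50_1, would accompany almost any gene. In E50_1, 304 of the 350 cells had a UMI of CRYM and all of these had one of SOX5. A UMI of NR4A2 accompanied CRYM in 259 cells, and one of RSPO3 did in 171 (48.9%). NR4A2 and RSPO3 were together in 161 (46.0%). In E70_3, 26 of 29 cells had both CRYM and SOX5, 17 CRYM and NR4A2, and 20 CRYM and RSPO3. In E60_3 the counts were 9, 4 and 5 of 17 cells.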

How the data were processed

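Single cells were captured with 10X chemistry and the authors mapped the reads to the pig genome Sscrofa11.1 with Cell Ranger (version 2.20 in the submitters' processing notes). The deposited values are raw UMI counts per gene and cell, without normalization, with 5067 to 85522 UMIs per FEZF2/BCL11B neuron. The members and gene lists were chosen with earlier results of these data known. Counts were summed per library and group and tested with edgeR 4.0.16 (TMM, filterByExpr, library as a block, Benjamini-Hochberg adjustment), with DESeq2 1.42.0 as an alternative. The library pairs the groups, since both come from the same droplets. CPM are UMIs per 1000000 UMIs of the summed cells, with exact Poisson intervals. Named genes were the 10 largest changes in each direction with an adjusted p under 0.05, at least 20 CPM on average and the same direction in the 3 libraries, and the genes of the lists. On simulated counts for this comparison with 14725 genes, 85.2% of 115 genes changed by 2 on the log2 scale and 49.4% of 85 changed by 1 were recovered, with 6 false calls. The simulation gave every gene the same fixed dispersion, which was not estimated from these data. Its rates may therefore not hold for the real sums, where 1 cell can carry most UMIs of a gene. Planned tests of embryonic day, of its difference between the groups and of cells with against without FEZF2 were not made, since only 1 library per stage gave sums, and only E50_1 for the last. Doublets called by Scrublet were kept. They were 150 of 5506 cells in E50_1, 9 of 2696 in E60_3 and 7 of 3120 in E70_3. RSPO3 and ARPP21 were left out of the list counts. One gene of the upper-layer list is not reported here.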

Additional observations from a re-analysis of the deposited data

Results flagged for a closer look

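Some genes of the lists were at least 1 log2 unit higher than in the comparison neurons in one library and at least 1 lower in another, which was not tested, since each stage had 1 library. The log2 ratio of CPM in E50_1, E60_3 and E70_3 was -2.13, 3.27 and -0.91 for RELN and -1.05, 3.96 and 2.18 for CALB2. In E60_3, 174 of the 282 UMIs of RELN and 122 of the 154 of CALB2 came from 1 cell. UNC5D, a netrin receptor, went from 1.00 to -0.21 and -1.18, CPNE4 from -1.15 to 0.66 and 1.25, and TOP2A, a gene of dividing cells, from 0.92 to 1.00 and -1.46.

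Some libraries that the rule did not use also held weak signal. E60_1 had 1 of 82 glutamatergic-gated cells with 1 or 2 UMIs of FEZF2 and BCL11B, and E60_2 had none of 28. No cell of E60_1 or E60_2 met the rule. In the nuclei of E70, 8 of 64 glutamatergic-gated nuclei had 1 or 2 UMIs of FEZF2 and BCL11B, but none had 3. In the adult whole cells it was 5 of 47, and 1 further cell with 90092 UMIs met the rule, as did 1 of the 2 gated adult nuclei, with 5500 UMIs. The adult cell with 90092 UMIs also met the microglial gate.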

How the results depend on the processing

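The comparison rests on 3 library pairs, of which E60_3 gave 17 cells and 306874 UMIs. The count of genes that passed was 783, and between 584 and 974 without 1 of the libraries (974 without E50_1). In the last, 529 genes were higher. The count was 585 with DESeq2, 837 without TMM factors, 1355 without the filter on low counts, 397 at a threshold of 5 UMIs (where E60_3 had too few cells), 169 with matched comparison neurons and 40 without the replicate block. Without this pairing by library none of 11 upper-layer and 2 of 19 deep-layer genes passed. Of the settings chosen after the data were seen, the stricter comparison neurons gave 247 genes (219 shared), cells of at most 20000 UMIs 781 and the 3 cells of E70_2 774. The 9 highest genes other than RSPO3 passed in all settings other than the matched one (8 of 9) and the one without the block (4 of 9). With matched UMIs 34 of 65 named genes kept their direction and call, 28 no longer passed and 3 reversed. Among those that no longer passed were NRP1 (-1.24), LEF1 (-2.80), FOXP1 (0.94) and KCNK2 (-0.97). Without the block 22 of 66 named genes kept direction and call, and 44 no longer passed. Against the stricter comparison neurons C1QC (0.30), AIF1 (0.0430) and FCER1G (0.38) reversed their log2 fold change, as FOXP2 (-0.16) and EPHA5 (0.0470) did with matched UMIs. RELN turned negative with DESeq2 (-0.13), without TMM factors (-0.00884), with matched UMIs (-0.68), at thresholds of 2 (-0.12) and 5 UMIs (-1.73), with the cells of E70_2 (-0.20), at most 20000 UMIs (-1.49), the stricter comparison neurons (-0.0708) and without E60_3 (-1.64, edgeR adjusted p = 0.00386), and ranged from -1.64 to 1.61 without 1 of the libraries. The mean share at E70 was 8.33% at a threshold of 2 UMIs and 0.0805% after thinning, and lay between 1.72% and 3.49% without 1 of its libraries. The thinned sums gave no value for the gene comparison, since only E50_1 kept 10 cells, and the alternatives for embryonic day and for cells with FEZF2 were not run for the same lack of libraries.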
